A study of Caenorhabditis elegans with 12 samples.

Results

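Splicing factors and other RNA processing proteins were followed in RNAseq of whole *C. elegans* at an age of day 6. They were chosen by a rule on names, set with earlier results of these data known. It took the protein-coding genes whose symbol belongs to the families *snr*, *snrp*, *prp*, *prpf*, *rsp*, *rnp*, *hrp*, *hrpa*, *hrpk*, *hrpr*, *uaf*, *sfa*, *sftb*, *sap*, *sut*, *ddx*, *dhx*, *lsm* or *gut*. This rule found 24 genes among the 5272 genes listed for every library, of which 4209 to 4693 had a count in a library, where the whole annotation holds 76, and the other genes of these families were not analysed here. The 3 groups had 4 libraries each. FW1256-exposed WT were Bristol N2 nematodes given the H2S donor FW1256 at 500 µM from the L1 larval stage onwards. Mutants of *eat-2* were of strain DA1116 and were not exposed. Slow pumping of the pharynx limits how much food they take in, and the study used them as its model of caloric restriction (CR). Lower food intake and other effects of the mutation cannot be told apart. The controls were unexposed Bristol N2 (WT). All animals were grown on *Escherichia coli*, and RNA was taken from whole bodies. The sources do not state whether replicate libraries came from separate cultures, so p-values measure the spread between these libraries, which may be technical.

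Splicing removes introns from pre-mRNA. The U1 snRNP and the branch point and polypyrimidine tract proteins SF1 and U2AF mark the ends of an intron, small nuclear RNPs built on Sm and Lsm rings assemble there, and Prp proteins drive the steps of the reaction. SR proteins bind exons and mostly favour the use of nearby splice sites, while hnRNPs often oppose it, so that the balance between these families can set which exons an mRNA keeps. In *C. elegans*, the SF1 gene *sfa-1* is known to be needed for the lifespan extension of animals under dietary restriction, which makes the family relevant to a comparison of an H2S donor with a CR mutant.

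Each library had between 14769332 and 19199982 estimated counts over the measured genes, and the 24 genes held between 1.32% and 1.52% of these counts. Values are given as CPM after TMM scaling over all 12 libraries, relative to the measured genes only. Libraries of a group differed from each other beyond counting noise (chi-square per gene from 11.6 to 48.1), so each library counted as 1 sample. Markers of body wall muscle, pharynx, intestine and germline were detected in every library, as whole bodies should have. The neuronal gene *egl-3* is listed at 0 throughout, and no gene of the sperm list is among the 5272 genes listed. The 24 genes lie on all chromosomes but X (coordinates below are those of the WBcel235 annotation), and 17 of them have more than 1 annotated transcript, with 10 for *hrpa-1*. The values are sums over the transcripts of a gene, so the levels of splicing factors were measured and their splicing was not.

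Levels per length differed widely between the genes. As CPM per kilobase of annotated exon in unexposed WT, the hnRNP gene *hrpa-1* (1510), the SR gene *rsp-3* (1400), the exon junction gene *rnp-4* (1210), the Sm gene *snr-4* (1110) and the helicase gene *ddx-17* (948) were highest. At the other end were *rsp-5* (36.0), *rsp-1* (34.8), *rsp-6* (23.5) and *sfa-1* (6.30). All 24 genes passed the filter on low counts in each comparison, with *sfa-1* lowest at a mean of 317 estimated counts per library. Replicates agreed closely for most of them. The median coefficient of variation over the genes was 3.61% in FW1256-exposed WT, 4.19% in *eat-2* mutants and 7.13% in unexposed WT. The main exception was *hrpk-1*, at 68.6%, 32.4% and 65.4% in these groups, followed by *sfa-1*, at 18.5%, 16.6% and 26.7%, and in unexposed WT *rsp-7* (27.3%) varied as much.

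With FW1256, most of the called genes were higher than in unexposed WT, and 4 of them were SR genes. Of the 24 genes, 8 rose (*rsp-1*, *rsp-5*, *rsp-6*, *rsp-8*, *hrpr-1*, *prp-17*, *prp-18* and *ddx-17*) and 1 fell (*lsm-5*), with an adjusted p under 0.05 in edgeR's quasi-likelihood test over all 3616 genes tested. These 9 genes are 37.5% of the 24, where 50.2% of all genes tested changed. The genes tested are not all protein-coding, unlike the 24, as 3363 of the 5272 genes listed are. By direction, 33.3% of the 24 rose and 4.17% fell, where 25.5% of all genes rose and 24.8% fell. Changes were small, between -0.28 and 0.51 on the log2 scale with a median of 0.06, while the median over all genes tested was -0.0029. All 9 genes also passed in DESeq2 and without any 1 of the 8 libraries. With library size in place of TMM scaling, 7 of the 24 rose and 3 fell (over all genes, 691 rose and 1055 fell, against 922 and 895 with TMM), and the call of *prp-17* was lost (log2 fold change 0.09, adjusted p = 0.137, against a range of 0.004 to 0.137 over its alternatives).

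In *eat-2* mutants the called genes were mostly lower than in unexposed WT. The 7 that fell were *rsp-3*, *rsp-8*, *prp-17*, *prp-18*, *lsm-1*, *rnp-1* and *ddx-19*, and 1 rose (*rsp-6*). This is 33.3% of the 24, where 44.2% of the 3786 genes tested changed. By direction, 4.17% rose and 29.2% fell, where 21.8% of all genes rose and 22.4% fell. Changes lay between -0.38 and 0.93 on the log2 scale with a median of -0.07, while that over all genes tested was 0.02. These calls were close to the threshold. Without *eat-2* replicate 1 there were 4 (1 rise, 3 falls), without *eat-2* replicate 3 there were 5 (1 rise, 4 falls), and at an adjusted p under 0.01 only those of *rsp-6* and *rsp-8* were left. Both comparisons use the same WT libraries, so they are not independent of each other.

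The direct comparison of FW1256-exposed WT with *eat-2* mutants had the largest number of calls. Of the 24 genes, 15 were higher and 2 lower in FW1256-exposed WT, which is 70.8%, where 69.3% of the 3715 genes tested differed. The share that was higher was 62.5%, against 33.1% of all genes tested, and the share that was lower was 8.33%, against 36.2%. The median log2 fold change was 0.18, and -0.05 over all genes tested. With library size in place of TMM scaling, 11 were higher and 4 lower. Over all genes, 1011 were then higher and 1497 lower, against 1229 and 1346 with TMM. The genes *lsm-4*, *rnp-4*, *rnp-7*, *snr-4* and *uaf-2* passed in none of the comparisons, though all of them but *rnp-4* gained a call under at least 1 alternative.

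**Figure D1:**
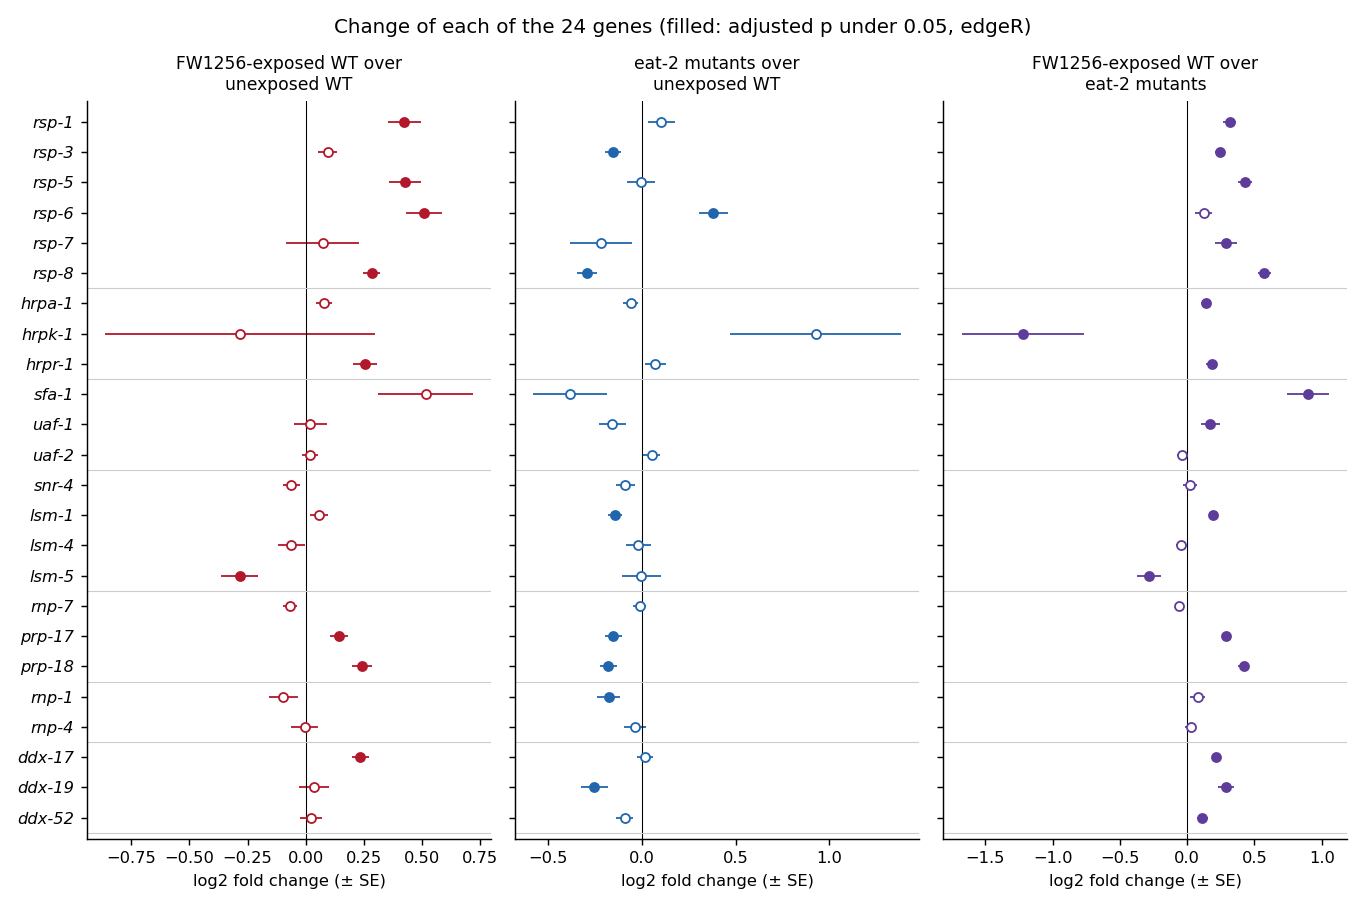
Log2 fold change of each of the 24 genes, in rows grouped by role, for FW1256-exposed WT over unexposed WT, *eat-2* mutants over unexposed WT, and FW1256-exposed WT over *eat-2* mutants (points, with SE as bars; filled where the adjusted p was under 0.05 in edgeR, n = 4 libraries per group; each panel has its own scale). The 9 filled points in the left panel lie to the right of 0 apart from *lsm-5*, the 8 in the middle panel lie to the left apart from *rsp-6*, and *hrpk-1* has the widest bar in every panel.

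Levels of tissue markers also differed between the groups. The germline markers measured were *pgl-1*, *gld-1* and *him-3*, 3 of 7 listed, and their summed level lay between 5075 and 5302 CPM in FW1256-exposed WT and between 3429 and 3684 CPM in *eat-2* mutants, against 4227 to 4454 CPM in unexposed WT. Of these, *gld-1* was higher with FW1256 (0.32 on the log2 scale, adjusted p = 1.48e-04) while *pgl-1* (0.09, adjusted p = 0.0655) and *him-3* (0.09, adjusted p = 0.107) did not pass, and all 3 fell in *eat-2* mutants (between -0.33 and -0.26). The oocyte and early embryo markers *rme-2*, *oma-2*, *skn-1* and *nos-2*, 4 of 10 listed, summed to between 6871 and 7141 CPM in FW1256-exposed WT and between 4595 and 5052 CPM in *eat-2* mutants, against 5914 to 6730 CPM in unexposed WT. The yolk receptor gene *rme-2* rose with FW1256 (0.30, adjusted p = 0.00104), while the other 3 did not pass (between -0.04 and 0.09). All but *skn-1* fell in *eat-2* mutants. The body wall muscle genes *unc-54* and *unc-15*, 2 of 4 listed, summed to between 1773 and 1989 CPM in FW1256-exposed WT and between 1165 and 1480 CPM in *eat-2* mutants, against 853.4 to 958 CPM in unexposed WT, and the intestinal gene *asp-1*, 1 of 5 listed, was at 2007 to 2225 CPM in FW1256-exposed WT and 3888 to 4361 CPM in *eat-2* mutants, against 1477 to 1868 CPM in unexposed WT. The pharynx genes *myo-1* and *tni-4*, 2 of 4 listed, summed to 161 to 222 CPM in FW1256-exposed WT and 193 to 222 CPM in *eat-2* mutants, against 103.4 to 143 CPM in unexposed WT. All of these muscle, intestine and pharynx genes were called higher in both groups, where 25.5% and 21.8% of all genes tested were. The hypodermis gene *rol-6*, 1 of 4 listed, was called in neither (-1.05, adjusted p = 0.277, with FW1256 and 0.15, adjusted p = 0.902, in *eat-2* mutants). The neuronal gene *unc-64* was called higher in *eat-2* mutants (0.52, adjusted p = 0.0137), and the value with FW1256 was -0.11 (adjusted p = 0.603). Germline and early embryos are known to be rich in RNA processing factors. In whole-body RNA, fewer cells of a type and less RNA per cell cannot be told apart, and the part of these tissues in the changes of the 24 genes was not tested. The study reported that FW1256 and the *eat-2* mutation both delayed development and the peak of egg laying. Mutants of *eat-2* also laid fewer eggs and stayed shorter. Groups of the same age in days may thus differ in reproductive stage, which cannot be told apart from other effects of exposure or mutation.

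SR proteins carry RNA recognition motifs and a domain rich in arginine and serine, and 6 genes of the *rsp* family were analysed. With FW1256, 4 of them rose and none fell, where 25.5% of all genes tested rose and 24.8% fell. In *eat-2* mutants, 1 rose and 2 fell, where 21.8% of all genes rose and 22.4% fell. Between FW1256-exposed WT and *eat-2* mutants, 5 were higher with FW1256 and none lower, where 33.1% of all genes were higher and 36.2% lower. With so few genes these counts are a description, and SR genes were not tested against other classes.

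The gene *rsp-6* (WBGene00004703, chromosome IV, 7789847 to 7791229), whose protein is closest to the small SR proteins of vertebrates with a single RNA recognition motif, rose in both groups. Its level was 44.0, 43.1, 41.0 and 38.9 CPM in the FW1256-exposed WT libraries and 37.5, 37.7, 35.7 and 38.5 CPM in those of *eat-2* mutants, against 32.2, 27.5, 28.2 and 28.5 CPM in unexposed WT. Every library of both groups was above every unexposed WT library. The log2 fold change was 0.51 with FW1256 (SE 0.08, adjusted p = 5.72e-04) and 0.38 in *eat-2* mutants (SE 0.08, adjusted p = 0.00362). It was the only one of the 24 genes called higher in both groups, and the difference between them did not pass the test (0.12, SE 0.06, adjusted p = 0.103).

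The gene *rsp-8* (WBGene00004705, chromosome III, 11826418 to 11830974), related to the splicing activator transformer 2, went opposite ways. It was at 681, 697, 651 and 689 CPM in FW1256-exposed WT and at 427, 409.7, 461 and 483 CPM in *eat-2* mutants, against 539, 541, 560.1 and 576 CPM in unexposed WT. The 3 groups did not overlap, with unexposed WT in the middle. With FW1256 it rose 1.22-fold (log2 fold change 0.28, SE 0.04, adjusted p = 2.41e-04), and it fell in *eat-2* mutants, with -0.29 (SE 0.05, adjusted p = 0.00182). FW1256-exposed WT exceeded *eat-2* mutants 1.49-fold (adjusted p = 3.84e-06), the lowest adjusted p among the 24 genes in any comparison.

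For *rsp-5* (WBGene00004702, chromosome II, 6490165 to 6491340), levels were 53.0, 51.6, 50.6 and 52.5 CPM with FW1256 and 38.5, 35.8, 38.2 and 38.2 CPM in *eat-2* mutants, against 36.3, 42.1, 36.1 and 39 CPM in unexposed WT. Only the FW1256-exposed libraries stood apart, above all others. The log2 fold change with FW1256 was 0.43 (SE 0.07, adjusted p = 7.8e-04), and that in *eat-2* mutants was -0.0057 (SE 0.08, adjusted p = 0.958), with a sign that depended on the settings.

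Much the same held for *rsp-1* (WBGene00004698, chromosome II, 11453362 to 11455864), which belongs to the SR proteins with a pair of RNA recognition motifs and overlaps a gene on the opposite strand, so that its counts are uncertain. It had 111, 111, 112 and 108 CPM in FW1256-exposed WT and 81.4, 88.1, 84.1 and 92.5 CPM in *eat-2* mutants, against 77.0, 75.9, 81.1 and 93.2 CPM in unexposed WT. The FW1256-exposed libraries were close to each other and above all others. FW1256 gave a log2 fold change of 0.42 (SE 0.07, adjusted p = 8.72e-04) and *eat-2* mutants had a value of 0.10 (SE 0.07, adjusted p = 0.28).

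The most abundant SR gene was *rsp-3* (WBGene00004700, chromosome III, 12686182 to 12687922), the counterpart of human SRSF1 and the SR gene best known to be essential in *C. elegans* embryos. Its level was 2497, 2474, 2294 and 2544 CPM in FW1256-exposed WT and 2008, 2001, 2017 and 2052 CPM in *eat-2* mutants, against 2299, 2385, 2198 and 2243 CPM in unexposed WT. The libraries of *eat-2* mutants were tightly grouped and below all others, while those with FW1256 overlapped with unexposed WT. It fell in *eat-2* mutants (log2 fold change -0.15, SE 0.04, adjusted p = 0.0137; 0.0554 without *eat-2* replicate 1) and with FW1256 had a value of 0.09 (SE 0.04, adjusted p = 0.0956). That with FW1256 passed in 1 fit over all 3 groups (adjusted p = 0.0378), without FW1256 replicate 3 (0.0295) and without unexposed WT replicate 2 (0.0438), over a range of 0.0295 to 0.489. On the opposite strand it overlaps *elpc-2*, whose mean was far lower (181 CPM in FW1256-exposed WT and 141 CPM in *eat-2* mutants, against 170 CPM in unexposed WT).

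The last SR-related gene, *rsp-7*, was called in neither comparison with WT. It ranged from 99 to 111 CPM with FW1256 and from 73.8 to 96.8 CPM in *eat-2* mutants, against 78.1 to 136 CPM in unexposed WT. The highest of all was unexposed WT replicate 4, without which the log2 fold change with FW1256 was 0.28 (adjusted p = 0.0156) in place of 0.07 (adjusted p = 0.725), over a range of adjusted p from 0.0156 to 0.994 under its alternatives. Every FW1256-exposed library exceeded every library of *eat-2* mutants (log2 fold change 0.29, adjusted p = 0.0122), a call lost with library size in place of TMM scaling (adjusted p = 0.0741) and in 1 fit over all 3 groups (0.0841). It overlaps *marc-2* and D2089.8 on the opposite strand, so its counts are uncertain.

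**Figure D2:**
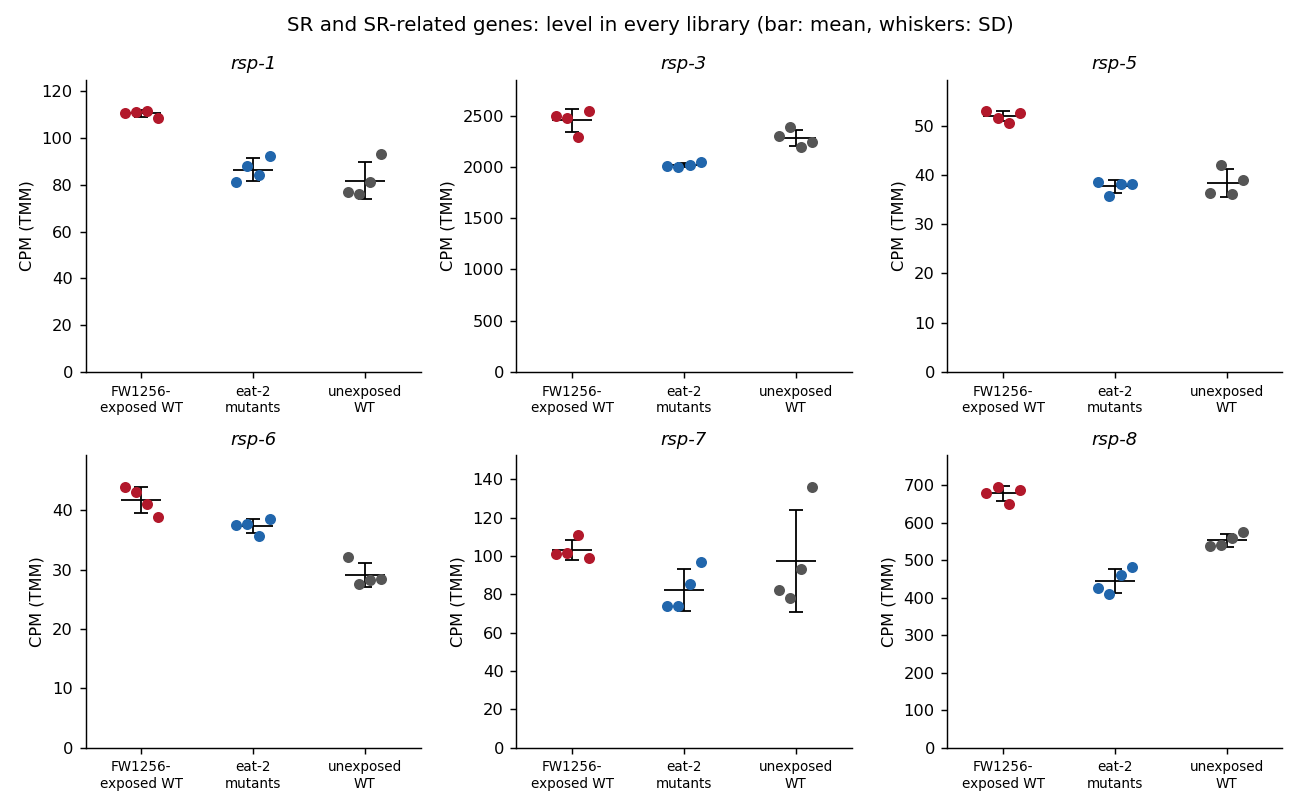
Level of the 6 SR and SR-related genes in CPM after TMM scaling, in each library of FW1256-exposed WT, *eat-2* mutants and unexposed WT (points; bar, mean; whiskers, SD; n = 4 libraries per group; axes start at 0). The FW1256-exposed libraries lie above all unexposed WT libraries for *rsp-1*, *rsp-5*, *rsp-6* and *rsp-8*, and the libraries of *eat-2* mutants lie below them for *rsp-3* and *rsp-8* and above them for *rsp-6*.

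Recognition of the 3′ splice site was represented by *sfa-1*, which encodes the branch point binding protein SF1, and by *uaf-1* and *uaf-2*, which encode the large and the small subunit of U2AF. None of them passed the test against unexposed WT in either group. The gene *sfa-1* (WBGene00013808, chromosome IV, 17103825 to 17110982) was at 27.0, 19.4, 30.7 and 24.96 CPM in FW1256-exposed WT and at 12.5, 11.1, 13.8 and 16.3 CPM in *eat-2* mutants, against 14.9, 12.7, 20.7 and 22.8 CPM in unexposed WT. Unexposed WT overlapped with both other groups, which did not overlap with each other. FW1256-exposed WT had 1.86 times the level of *eat-2* mutants (log2 fold change 0.90, SE 0.16, adjusted p = 6.48e-04), the largest positive difference among the 24 genes in that comparison.

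Against unexposed WT, the log2 fold change of *sfa-1* was 0.51 with FW1256 (SE 0.20, adjusted p = 0.0591). DESeq2 put it past the threshold (adjusted p = 0.0347), as did leaving out unexposed WT replicate 4 (0.66, adjusted p = 0.0244) or FW1256 replicate 2 (0.63, adjusted p = 0.0334) and 1 fit over all 3 groups (0.53, adjusted p = 0.0368), and over its alternatives the adjusted p ran from 0.0158 to 0.152. In *eat-2* mutants the value was -0.38 (SE 0.20, adjusted p = 0.141; 0.0393 to 0.323 over its alternatives). As given above, the libraries of each group spread widely for *sfa-1*.

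The large U2AF subunit gene *uaf-1* (WBGene00006697, chromosome III, 1062794 to 1076555) was at 184, 208, 172 and 193 CPM in FW1256-exposed WT and at 175, 171, 149 and 158 CPM in *eat-2* mutants, against 189, 203, 169 and 178 CPM in unexposed WT. The groups overlapped. Its log2 fold change was 0.02 with FW1256 (SE 0.07, adjusted p = 0.834), where library size in place of TMM scaling turned the sign, and -0.16 in *eat-2* mutants (SE 0.07, adjusted p = 0.104). The difference between FW1256-exposed WT and *eat-2* mutants just passed (0.17, adjusted p = 0.0487) and was lost in 6 of 15 alternatives.

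The small subunit gene *uaf-2* (WBGene00006698, chromosome IV, 17116771 to 17118767) lies on the same strand as *sfa-1*, 5788 bases away. Its level was 522, 529, 504 and 516 CPM with FW1256 and 527, 477, 541 and 531 CPM in *eat-2* mutants, against 521, 493, 490.4 and 527 CPM in unexposed WT. All 3 groups overlapped. The log2 fold changes were 0.02 (SE 0.04) with FW1256 and 0.05 (SE 0.05) in *eat-2* mutants, and neither passed the test (adjusted p = 0.698 and 0.364). Between FW1256-exposed WT and *eat-2* mutants it was called lower only without *eat-2* replicate 2 (-0.08, adjusted p = 0.0288, against -0.04 and 0.391 with all libraries).

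Both Prp genes analysed act late in splicing, around the second step that joins the exons, and both moved in opposite directions in the 2 groups. The level of *prp-18* (WBGene00009320, chromosome IV, 9882093 to 9884383) was 173, 166, 173 and 179 CPM in FW1256-exposed WT and 120.3, 127, 127 and 129 CPM in *eat-2* mutants, against 139.9, 141.6, 151 and 146 CPM in unexposed WT. No group overlapped with another. The log2 fold change was 0.24 with FW1256 (SE 0.04, adjusted p = 0.00133) and -0.18 in *eat-2* mutants (SE 0.05, adjusted p = 0.0114; 0.0537 without *eat-2* replicate 1, and 0.0024 to 0.0537 over its alternatives). It overlaps *nhr-4* on the opposite strand, so its counts are uncertain.

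For *prp-17* (WBGene00018625, chromosome I, 10936815 to 10940521), the levels were 413, 398, 413 and 411 CPM with FW1256 and 319, 314, 323 and 347 CPM in *eat-2* mutants, against 367, 344, 382 and 376 CPM in unexposed WT. FW1256-exposed libraries were above all others, and the highest library of *eat-2* mutants overlapped with the lowest of unexposed WT. The log2 fold changes were 0.14 with FW1256 (SE 0.04, adjusted p = 0.0131) and -0.15 in *eat-2* mutants (SE 0.05, adjusted p = 0.0237). The second of these was lost in 6 of 15 alternatives (highest adjusted p 0.0824), among them those without *eat-2* replicate 1, 2 or 3 and without unexposed WT replicate 3 or 4. Between FW1256-exposed WT and *eat-2* mutants, *prp-17* differed 1.22-fold (adjusted p = 3.22e-05) and *prp-18* 1.34-fold (adjusted p = 1.1e-05). The U1 protein gene *rnp-7*, which acts at the start of splicing, was at 482 ± 8.10 CPM in FW1256-exposed WT and 489 ± 16.3 CPM in *eat-2* mutants, against 501 ± 12.9 CPM in unexposed WT (SD, n = 4 each), and passed in no comparison. With library size in place of TMM scaling it was called lower in FW1256-exposed WT than in unexposed WT (-0.13, adjusted p = 0.0167) and than in *eat-2* mutants (-0.13, adjusted p = 0.0154), the second also without *eat-2* replicate 2 (-0.09, adjusted p = 0.0198).

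**Figure D3:**
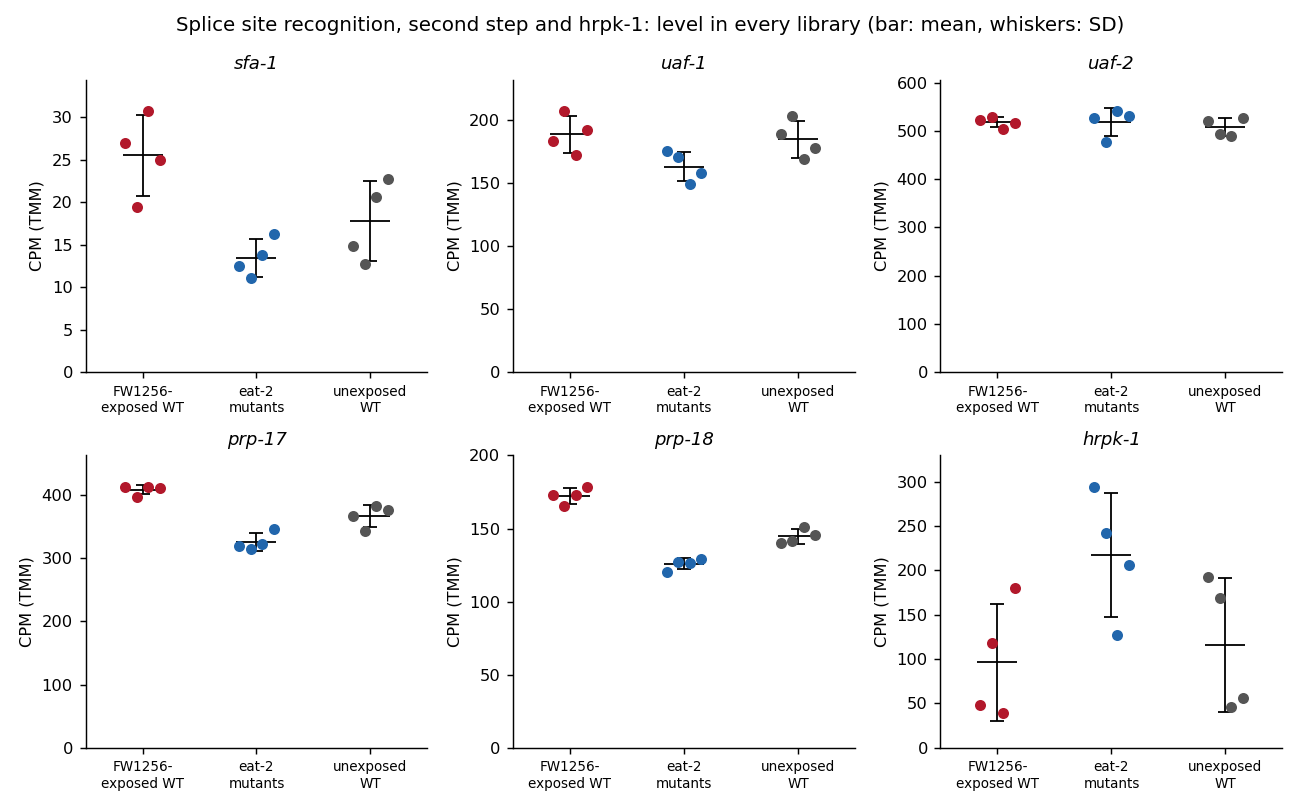
Level of *sfa-1*, *uaf-1*, *uaf-2*, *prp-17*, *prp-18* and *hrpk-1* in CPM after TMM scaling, in each library of FW1256-exposed WT, *eat-2* mutants and unexposed WT (points; bar, mean; whiskers, SD; n = 4 libraries per group; axes start at 0). The groups are apart for *prp-18*, FW1256-exposed WT lies above *eat-2* mutants for *sfa-1*, all groups overlap for *uaf-2*, and *hrpk-1* spreads from 38.9 to 294 CPM.

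Among the hnRNPs, RNA-binding proteins that coat nascent transcripts, *hrpr-1* (WBGene00002000, chromosome I, 12060271 to 12064897) rose with FW1256. It was at 1643, 1702, 1689 and 1719 CPM in FW1256-exposed WT and at 1481, 1501, 1392 and 1429 CPM in *eat-2* mutants, against 1339, 1492, 1291 and 1490 CPM in unexposed WT. FW1256-exposed libraries were above all others, and the other groups overlapped. Its log2 fold change with FW1256 was 0.26 (SE 0.05, adjusted p = 0.00261), and 0.07 in *eat-2* mutants (SE 0.06, adjusted p = 0.336).

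The gene of the hnRNP A1 counterpart, *hrpa-1* (WBGene00001999, chromosome IV, 3336920 to 3338867), had the highest level per length of the 24. It was at 2644, 2682, 2520 and 2702 CPM with FW1256 and at 2418, 2244, 2363 and 2331 CPM in *eat-2* mutants, against 2481, 2463, 2433 and 2528 CPM in unexposed WT. The libraries of *eat-2* mutants were below all others. Neither the log2 fold change of 0.08 with FW1256 (SE 0.03, adjusted p = 0.0828) nor that of -0.06 in *eat-2* mutants (SE 0.04, adjusted p = 0.234) passed in edgeR, whereas DESeq2 called both (adjusted p = 0.0206 and 0.0343; over the alternatives 0.0206 to 0.63 and 0.0343 to 0.494). FW1256-exposed WT exceeded *eat-2* mutants (0.14, adjusted p = 0.00805), except with library size in place of TMM scaling (0.06, adjusted p = 0.216).

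The most variable of the 24 genes in every group was *hrpk-1* (WBGene00017816, chromosome I, 6317697 to 6320364), which encodes a KH domain protein related to hnRNP K. Its libraries had 48.1, 118, 38.9 and 179.7 CPM in FW1256-exposed WT and 294, 242, 127 and 207 CPM in *eat-2* mutants, against 193, 168, 46.3 and 55.5 CPM in unexposed WT. In unexposed WT, replicates 1 and 2 were high and replicates 3 and 4 low, and all groups overlapped. The log2 fold changes against unexposed WT did not pass (-0.28 with FW1256, SE 0.58, adjusted p = 0.709, and 0.93 in *eat-2* mutants, SE 0.46, adjusted p = 0.125). FW1256-exposed WT was lower than *eat-2* mutants (-1.22, SE 0.46, adjusted p = 0.0363), a call that was lost in 7 of 15 alternatives, among them those without FW1256 replicate 1 or 3 and without *eat-2* replicate 1, 2 or 4 (adjusted p 0.0557 to 0.0945). The gene has 9 annotated transcripts and overlaps *let-381* on the opposite strand, so its counts are uncertain.

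Sm and Lsm proteins form the rings that hold the spliceosomal RNAs, and a cytoplasmic Lsm ring that contains LSM-1 acts in mRNA decay. Of the 4 genes analysed, *lsm-5* (WBGene00003079, chromosome V, 15570380 to 15570655) was the only one of the 24 that fell with FW1256. It was at 182, 162, 159.5 and 174 CPM in FW1256-exposed WT and at 236, 204, 171 and 195 CPM in *eat-2* mutants, against 223, 224, 192 and 181 CPM in unexposed WT. FW1256 replicate 1 overlapped with the lowest unexposed WT library. It fell with a log2 fold change of -0.28 (SE 0.08, adjusted p = 0.0122), and in *eat-2* mutants the value was -0.0031 (SE 0.10), with a sign that depended on the settings.

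The decay ring gene *lsm-1* (WBGene00003076, chromosome II, 11126950 to 11127528) fell in *eat-2* mutants. Its levels were 291, 293, 281 and 306 CPM with FW1256 and 248, 253, 246 and 250.1 CPM in *eat-2* mutants, against 275, 291, 269 and 282 CPM in unexposed WT. All *eat-2* libraries were below all others. The log2 fold change was -0.14 in *eat-2* mutants (SE 0.04, adjusted p = 0.0126; 0.0545 without *eat-2* replicate 1, 0.051 without unexposed WT replicate 2, and 9.81e-04 to 0.0545 over its alternatives), and 0.06 with FW1256 (SE 0.04, adjusted p = 0.257), where library size in place of TMM scaling turned the sign. The gene *snr-4*, for the core protein SmD2, was at 601 ± 22.4 CPM in FW1256-exposed WT and 577 ± 34.6 CPM in *eat-2* mutants, against 623 ± 16.0 CPM in unexposed WT (SD, n = 4 each). The gene *lsm-4*, which overlaps *ada-2* on the opposite strand, was at 232 ± 7.99 CPM in FW1256-exposed WT and 234 ± 7.53 CPM in *eat-2* mutants, against 240.2 ± 21.1 CPM in unexposed WT (SD, n = 4 each). Neither of these core ring genes passed in any comparison with TMM scaling. With library size in its place, *snr-4* was called lower with FW1256 (-0.12, adjusted p = 0.0272) and *lsm-4* lower in FW1256-exposed WT than in *eat-2* mutants (-0.12, adjusted p = 0.0174).

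DEAD-box proteins use ATP to remodel RNA and its complexes. The gene *ddx-17* (WBGene00010260, chromosome V, 14008751 to 14012052) had 2925, 2871, 2815 and 2978 CPM in FW1256-exposed WT and 2407, 2356, 2484 and 2486 CPM in *eat-2* mutants, against 2521, 2356, 2487 and 2410 CPM in unexposed WT. Only the FW1256-exposed libraries stood apart, with a log2 fold change of 0.24 (SE 0.04, adjusted p = 6.31e-04). In *eat-2* mutants the value was 0.02 (SE 0.04, adjusted p = 0.795).

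The gene *ddx-19* (WBGene00011580, chromosome II, 8884899 to 8889702), whose human counterpart acts in the export of mRNA at the nuclear pore, was called lower in *eat-2* mutants. It was at 214, 196, 196 and 213 CPM with FW1256 and at 182, 156, 156 and 161 CPM in *eat-2* mutants, against 214, 208, 177 and 194 CPM in unexposed WT. One library of *eat-2* mutants overlapped with unexposed WT. It fell in *eat-2* mutants (log2 fold change -0.25, SE 0.07, adjusted p = 0.0176; 0.0528 without *eat-2* replicate 3, and 0.00109 to 0.0528 over its alternatives), and with FW1256 the value was 0.04 (SE 0.06, adjusted p = 0.66), with a sign that turned under library size in place of TMM scaling. The third helicase gene, *ddx-52*, whose yeast counterpart acts in ribosome assembly, was at 198 ± 9.99 CPM in FW1256-exposed WT and 179 ± 7.25 CPM in *eat-2* mutants, against 194 ± 6.76 CPM in unexposed WT (SD, n = 4 each), and was called only between FW1256-exposed WT and *eat-2* mutants (0.11, adjusted p = 0.04), a call lost in 6 of 15 alternatives.

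The genes *rnp-1* and *rnp-4* encode proteins with an RNA recognition motif, and RNP-4 is the Y14 subunit of the exon junction complex, which marks spliced mRNA. The level of *rnp-1* (WBGene00004384, chromosome V, 12192273 to 12194366) was 108, 101, 107 and 112 CPM in FW1256-exposed WT and 104, 96.9, 100.4 and 94.0 CPM in *eat-2* mutants, against 125, 109.5, 107 and 113 CPM in unexposed WT. All *eat-2* libraries were below all unexposed WT libraries. The fall in *eat-2* mutants (log2 fold change -0.18, SE 0.06, adjusted p = 0.0398) was lost in 7 of 15 alternatives, among them those without *eat-2* replicate 2, 3 or 4 or without unexposed WT replicate 1, 2 or 4 (highest adjusted p 0.0959). On the same strand it overlaps *dpy-30*, which had 572 CPM in FW1256-exposed WT and 585 CPM in *eat-2* mutants, against 583 CPM in unexposed WT. The level of *rnp-4* was 826 ± 39.5 CPM with FW1256 and 791 ± 30.95 CPM in *eat-2* mutants, against 823 ± 64.2 CPM in unexposed WT (SD, n = 4 each), with no call in any comparison.

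Other genes of RNA processing were counted in the same fits, from lists of gene names that, apart from *ddx-19*, lie outside the families above. Over all genes tested, 25.5% rose and 24.8% fell with FW1256, and 21.8% rose and 22.4% fell in *eat-2* mutants. Of 12 other spliceosome genes, 5 rose and 1 fell with FW1256, while none rose and 4 fell in *eat-2* mutants. The rises with FW1256 were led by *mog-3* (log2 fold change 0.26, adjusted p = 0.00201) and *rbm-25* (0.26, adjusted p = 0.00113), and *rbm-39* fell (-1.27, SE 0.41, adjusted p = 0.0283). In *eat-2* mutants, *rbm-25* (-0.30, adjusted p = 0.00172) and *tcer-1* (-0.29, adjusted p = 0.0138) fell most.

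Of 10 regulators of alternative splicing, 5 rose with FW1256 and none fell, and 3 rose and 2 fell in *eat-2* mutants. The largest rises with FW1256 were those of *hrpu-1* (0.44, adjusted p = 7.8e-04), related to hnRNP U, and of *gld-1*, which is best known as a translational repressor of the germline and is also 1 of the germline markers. In *eat-2* mutants the muscleblind gene *mbl-1* (0.41, adjusted p = 0.0122) and *mec-8* (0.22, adjusted p = 0.0355) rose, and *gld-1* (-0.26, adjusted p = 0.00234) and *asd-1* (-0.12, adjusted p = 0.0466) fell. The median log2 fold changes were 0.08 (spliceosome) and 0.11 (regulators) with FW1256, and -0.12 and -0.05 in *eat-2* mutants, beside medians over all genes tested of -0.0029 and 0.02.

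Of 7 genes of cap binding, RNA export and the exon junction complex, which include *ddx-19*, 2 rose with FW1256, *aly-3* (0.27, adjusted p = 5.73e-04) and *thoc-5* (0.21, adjusted p = 0.00266), and *hel-1*, the UAP56 helicase gene of mRNA export, fell (-0.57, adjusted p = 0.00166). None rose and 4 fell in *eat-2* mutants, led by *nxf-2*, related to the mRNA export receptor, (-0.44, adjusted p = 6.21e-04), and by *thoc-5* (-0.26, adjusted p = 0.00262). The shares called in these short lists can be read against the 50.2% and 44.2% of all genes called with FW1256 and in *eat-2* mutants, and no list was tested as a whole.

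**Figure D4:**
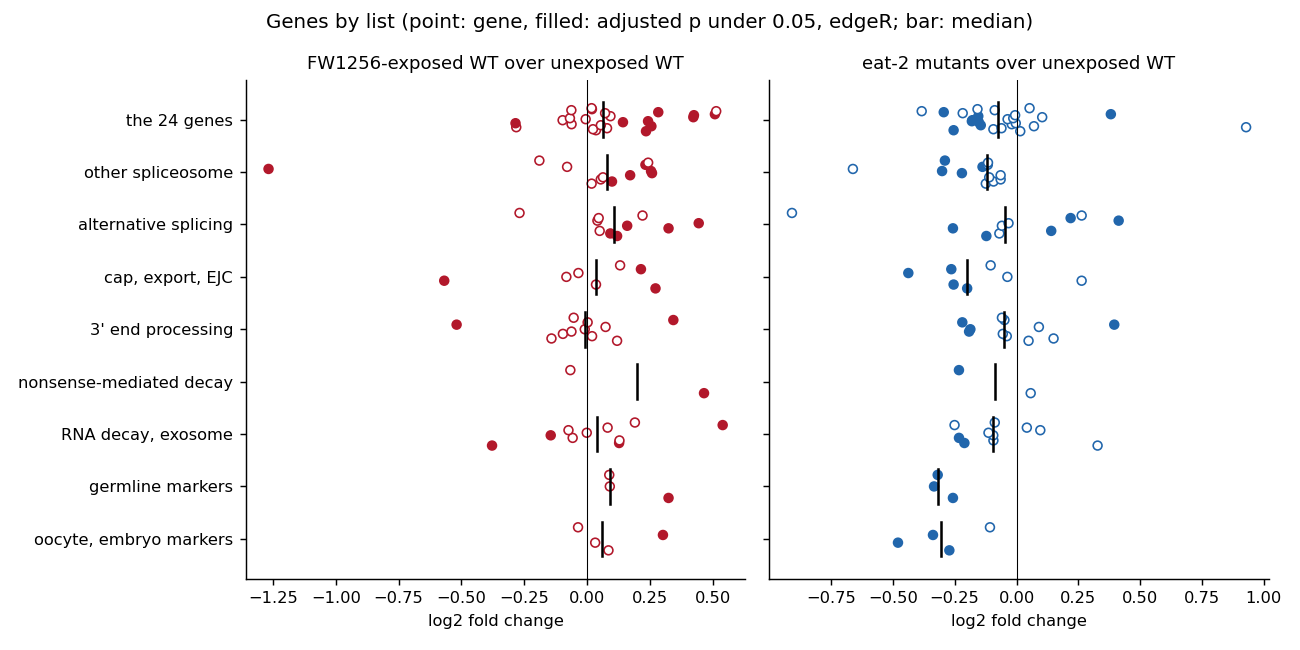
Log2 fold change with FW1256 (left) and in *eat-2* mutants (right), each over unexposed WT, for the 24 genes, for 6 other lists of RNA processing genes and for germline and oocyte markers (point, gene; filled where the adjusted p was under 0.05 in edgeR; bar, median of the list; n = 4 libraries per group). With FW1256 the medians lie between -0.0090 for 3′ end processing and 0.20 for nonsense-mediated decay, and in *eat-2* mutants all of them lie below 0, lowest for the germline markers at -0.32.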

How the data were processed

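RNAseq libraries of whole nematodes were compared in 3 groups of 4, as named in the sample titles. The authors deposited estimated counts for each gene, made from reads with kallisto (version 0.46.0) and summed from transcripts to genes with tximport, scaled to library size and transcript length; whether strand was used is not given in the sources used here. These counts were rounded to whole numbers. Further deposited tables hold the authors' own comparisons (fold changes and p-values) and were not used. After filterByExpr and TMM scaling, edgeR (version 4.0.16, R version 4.3.3) was run with its quasi-likelihood test in a separate fit per pair of groups, with all 12 libraries, and p-values were adjusted by Benjamini-Hochberg over all genes tested. Calls are at an adjusted p under 0.05, and SE is the log2 fold change over the root of F. Scripts were tested on simulated data. Alternatives were DESeq2 (version 1.42.0), other scalings, filters, fits and thresholds, and leaving out each library. Values per library are given for *sfa-1*, *uaf-1*, *uaf-2* and *hrpa-1* and, in each comparison with unexposed WT, for up to 8 called genes with the largest rise and 8 with the largest fall at a mean of 100 counts or more. From other lists, up to 2 rises and 2 falls are named. The genes and lists were chosen with earlier results of these data known. Markers of body wall muscle, pharynx, intestine, hypodermis, neurons, germline, oocytes and sperm were also counted. Each library had at least 14769332 estimated counts.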

Additional observations from a re-analysis of the deposited data

Results flagged for a closer look

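In 2 of 72 groups, 1 library lay far from the other 3, where chance gives about 1 in 20 groups. Both are *eat-2* replicate 2. For *ddx-52* it had 168.2 CPM, and the other libraries of *eat-2* mutants had 181.6 to 183.4 CPM. For *rsp-5* it had 35.77 CPM, and the others had 38.16 to 38.51 CPM.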

How the results depend on the processing

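Called genes among the 24 numbered 7 to 12 with FW1256 (main value 9), 2 to 11 in *eat-2* mutants (8) and 12 to 17 between FW1256-exposed WT and *eat-2* mutants (17) over all alternatives. Leaving out 1 library each gave 9 to 11, 4 to 7 and 14 to 17. In *eat-2* mutants, 2 were called at an adjusted p under 0.01. The low numbers of 4 and 5 came without *eat-2* replicate 1 and replicate 3. Calls over all genes were also fewer in these settings, as given above. DESeq2 gave 11, 9 and 16. Whether libraries of the same replicate number belong together could not be settled. The correlations of their deviations ran from -0.0441 to 0.237, and some libraries but not all correlated best with their own number. With replicate as a block, the counts were 10, 11 and 17, and *sfa-1* was called with FW1256 (0.53, adjusted p = 0.0158), as were *sfa-1* (-0.36, adjusted p = 0.0393), *uaf-1* (-0.16, adjusted p = 0.0189) and *hrpk-1* (1.11, adjusted p = 0.00594) in *eat-2* mutants.

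Signs turned only for log2 fold changes that were not called, and the cause was not tested. With library size in place of TMM scaling, the values with FW1256 were -0.0025 for *lsm-1*, -0.0381 for *uaf-1*, -0.0401 for *uaf-2*, -0.0343 for *ddx-52* and -0.0223 for *ddx-19*. Those in *eat-2* mutants were 0.0017 for *lsm-4*, 0.0163 for *lsm-5*, 0.0071 for *rnp-7* and 0.0158 for *rsp-5*, and those between FW1256-exposed WT and *eat-2* mutants were -0.0472 for *rnp-4* and -0.0507 for *snr-4*. For *rnp-4* with FW1256 the value was 0.0119 without a filter and 0.0062 in 1 fit over all groups. For *ddx-17* in *eat-2* mutants it was -0.0088 in DESeq2 and -0.0012 without a filter, and for *uaf-2* between FW1256-exposed WT and *eat-2* mutants it was 0.0013 in DESeq2. Leaving out 1 library each, the values with FW1256 ran from -0.0127 to 0.0773 for *ddx-19*, -0.7702 to 0.0833 for *hrpk-1*, -0.101 to 0.0002 for *lsm-4*, -0.0469 to 0.0447 for *rnp-4*, -0.0169 to 0.2791 for *rsp-7* and -0.025 to 0.0703 for *uaf-1*. In *eat-2* mutants they ran from -0.0001 to 0.0324 for *ddx-17*, -0.0699 to 0.054 for *lsm-4*, -0.0741 to 0.0676 for *lsm-5*, -0.0771 to 0.0252 for *rnp-4* and -0.0349 to 0.0552 for *rsp-5*, and between FW1256-exposed WT and *eat-2* mutants from -0.0108 to 0.0485 for *snr-4*. The lowest count was that of *sfa-1*, at 317 per library, with a spread between libraries of 16.6% to 26.7%. For *rsp-6*, at 610 per library, the spread was 3.23% to 7.17%. The cause of these spreads was not tested.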

Other observations

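Of 11 genes of 3′ end processing tested, 1 rose and 1 fell with FW1256, and 1 rose and 3 fell in *eat-2* mutants. Over all genes tested, 50.2% were called with FW1256 and 44.2% in *eat-2* mutants, and no list was tested as a whole. The poly(A) binding protein gene *pab-2* fell with FW1256 (log2 fold change -0.52, SE 0.10, adjusted p = 0.00192 in edgeR) and rose in *eat-2* mutants (0.40, SE 0.09, adjusted p = 0.00693). The termination factor gene *pcf-11* rose with FW1256 (0.34, adjusted p = 6.7e-04), and the cleavage and polyadenylation genes *pap-1* (-0.22, adjusted p = 0.00754) and *cpsf-4* (-0.19, adjusted p = 0.00472) fell in *eat-2* mutants.

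Of 10 genes of RNA decay and the exosome, 2 rose and 2 fell with FW1256, and 2 fell in *eat-2* mutants. These counts stand beside the same 50.2% and 44.2% called over all genes. The CCR4-NOT gene *ntl-4* rose with FW1256 (0.54, SE 0.09, adjusted p = 0.00118), while the deadenylase gene *ccr-4* fell (-0.38, SE 0.14, adjusted p = 0.0493). The exosome nuclease gene *dis-3* rose with FW1256 (0.13, adjusted p = 0.0218) and fell in *eat-2* mutants (-0.21, adjusted p = 0.00324). Of the other exosome genes, *exos-9* fell with FW1256 (-0.14, adjusted p = 0.0153) and *exos-8* fell in *eat-2* mutants (-0.23, adjusted p = 0.00365). Of the 2 genes of nonsense-mediated decay analysed, *smg-2* rose with FW1256 (0.47, adjusted p = 0.00333) and *smg-3* fell in *eat-2* mutants (-0.23, adjusted p = 0.00351). No gene of the trans-splicing list was analysed here.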
